A study of Mus musculus with 12 samples.

Results

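Mitochondrial ribosomal protein genes were examined in RNA-seq libraries of neural stem cells (NSCs). The members were the 77 genes, of 45792 in the deposited tables, whose symbol was Mrpl or Mrps followed by a number and at most 1 letter from a to c. By symbol 48 encoded proteins of the large and 29 proteins of the small ribosomal subunit. The rule used symbols only and no measured value, but it was chosen with earlier results of these data known. Primary NSC cultures were established from neonatal forebrain, and 12 libraries were compared: 4 of wild-type (WT) NSCs, 4 of Ncf1-/- NSCs given vehicle and 4 of Ncf1-/- NSCs given mouse recombinant Igfbp2. Ncf1 encodes a cytosolic organizer subunit of the Nox2 NADPH oxidase, and Igfbp2 is a secreted binding protein of insulin-like growth factors. Treatment began 48 h after plating and RNA was collected a further 48 h later. For Igfbp2 the labels state 100 ng/ml, whereas a lower dose stands in the methods. The Ncf1-/- mice were a constitutive line backcrossed to C57BL/6J, and the vehicle-treated and Igfbp2-treated cultures both carried the deletion. By the methods each culture came from a single pup. The p-values measure the spread between the libraries of a group, which is that between pups only if the methods hold.

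Mitochondria carry their own ribosome, which translates the few mRNAs encoded by mitochondrial DNA, all for membrane subunits of the respiratory chain and ATP synthase. The ribosomal RNAs of this particle are made in the organelle, but every one of its proteins is encoded in the nucleus, made in the cytosol and imported. Some of the proteins have relatives in bacterial ribosomes, and others are found only in mitochondrial ribosomes. In the brain, neurons depend heavily on oxidative phosphorylation, while NSCs rely more on glycolysis.

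Expected counts, the number of reads that the RSEM program assigns to a gene, summed to between 18201622 and 34086554 per library. All 77 members passed the filter on low counts, with at least 113 counts in every library except for Mrpl23, whose lowest library held 9. Ncf1 itself had at most 7 counts in any library, and its level therefore says nothing of the genotype. The summed level of 4 Y-linked genes was between 105.3 and 118 CPM, counts scaled to the size of the library, in all vehicle-treated Ncf1-/- libraries and in WT replicates 9 to 11. It was between 6.46 and 9.18 CPM in WT replicate 12 and all Igfbp2-treated libraries. This goes against the statement in the methods that vehicle and Igfbp2 cultures came in pairs from the same animals. A sample sheet kept with the study's code lists WT replicate 12 as treated with apocynin, an inhibitor of NADPH oxidase, whereas the labels give it as untreated. The counts of members called against WT, the large-to-small difference and the list counts that change are therefore also given without it. Of the marker lists, the NSC list had summed levels of 7989 to 8768 CPM in vehicle-treated and 8054 to 8483 CPM in Igfbp2-treated Ncf1-/- libraries. WT replicate 11 held 8098 CPM of these markers and the other WT libraries between 2463 and 3745 CPM. The list went both ways, since 3 of its 8 markers rose in Ncf1-/- NSCs (Nes, Egfr and Fabp7) and 4 fell (Sox2, Pax6, Prom1 and Hes5). Markers of microglia and endothelium were near 0, at no more than 1.45 CPM summed in any library.

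Mitochondrial ribosomal protein genes were expressed at a higher level in Ncf1-/- than in WT NSCs. Of the 77 members, 64 rose and 0 fell by edgeR's quasi-likelihood test at an adjusted p (Benjamini-Hochberg over all 15706 genes tested) under 0.05, whereas 28.9% of all genes tested were called higher and 28.2% lower. Without WT replicate 12, 57 members rose and 0 fell. The median log2 fold change over the members was 0.48, a 1.39-fold higher level, and over all genes tested it was 0.02. Called members rose by between 0.19 and 1.13 on the log2 scale, and 22 of them rose by more than 1.5-fold. In 58 members every Ncf1-/- library lay above every WT library, and in 0 members every one lay below, while 26.1% of all genes tested were separated upwards.

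Summed over the 77 members, the level was 1996, 1793, 1933 and 1867 CPM in WT replicates 9 to 12, after scaling of each library by edgeR's TMM factor. In vehicle-treated Ncf1-/- replicates 1 to 4 it was 2722, 2557, 2705 and 2470 CPM. The lowest Ncf1-/- library thus lay above the highest WT library. Group means were 1897 ± 87.2 CPM in WT and 2613 ± 121 CPM in Ncf1-/- NSCs (SD, n = 4 each). As a share of all counts without that scaling, the members took 0.174 to 0.198% in WT and 0.278 to 0.299% in Ncf1-/- libraries. In bulk RNA, fewer cells of a type and less RNA per cell cannot be told apart.

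**Figure D1:**
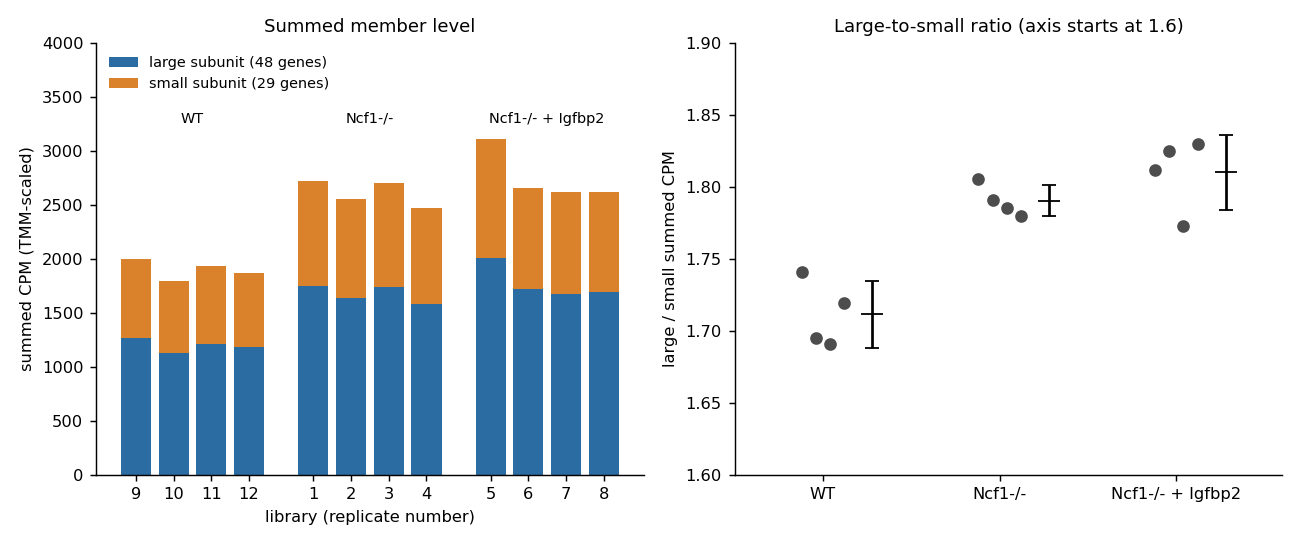
Left, summed level of the members per library in TMM-scaled CPM, with large-subunit genes in blue and small-subunit genes in orange; right, the ratio of the summed large to the summed small level per library (points), with the mean and SD of each group (n = 4). The 4 Ncf1-/- libraries sit between 2470 and 2722 CPM, all above the WT libraries, and Igfbp2-treated replicate 5 stands highest at 3113 CPM.

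Other gene groups moved between the same libraries, and their part in the result was not tested. All 10 oligodendrocyte markers fell in Ncf1-/- NSCs, and their summed level was 258 to 333 CPM there and 2140 to 10925 CPM in WT libraries. Of the astrocyte markers 6 of 7 fell, at 2943 to 3429 CPM summed in Ncf1-/- and 6903 to 12197 CPM in WT libraries. Of the neuron markers 5 of 7 fell, at 483 to 547 CPM and 597 to 770 CPM. Proliferation markers rose in 10 of 10, with 1597 to 2035 CPM in Ncf1-/- and 367 to 680 CPM in WT libraries. WT replicate 11 had the lowest oligodendrocyte sum of the WT libraries and an NSC marker sum inside the Ncf1-/- range. On other lists it was the WT library furthest from the Ncf1-/- range. Its astrocyte sum was the highest, at 12197 CPM, and its proliferation sum the lowest, at 367 CPM. Its member sum, 1933 CPM, lay within the range of the other WT libraries, and without it 64 members rose and 1, Mrps7, fell.

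**Figure D2:**
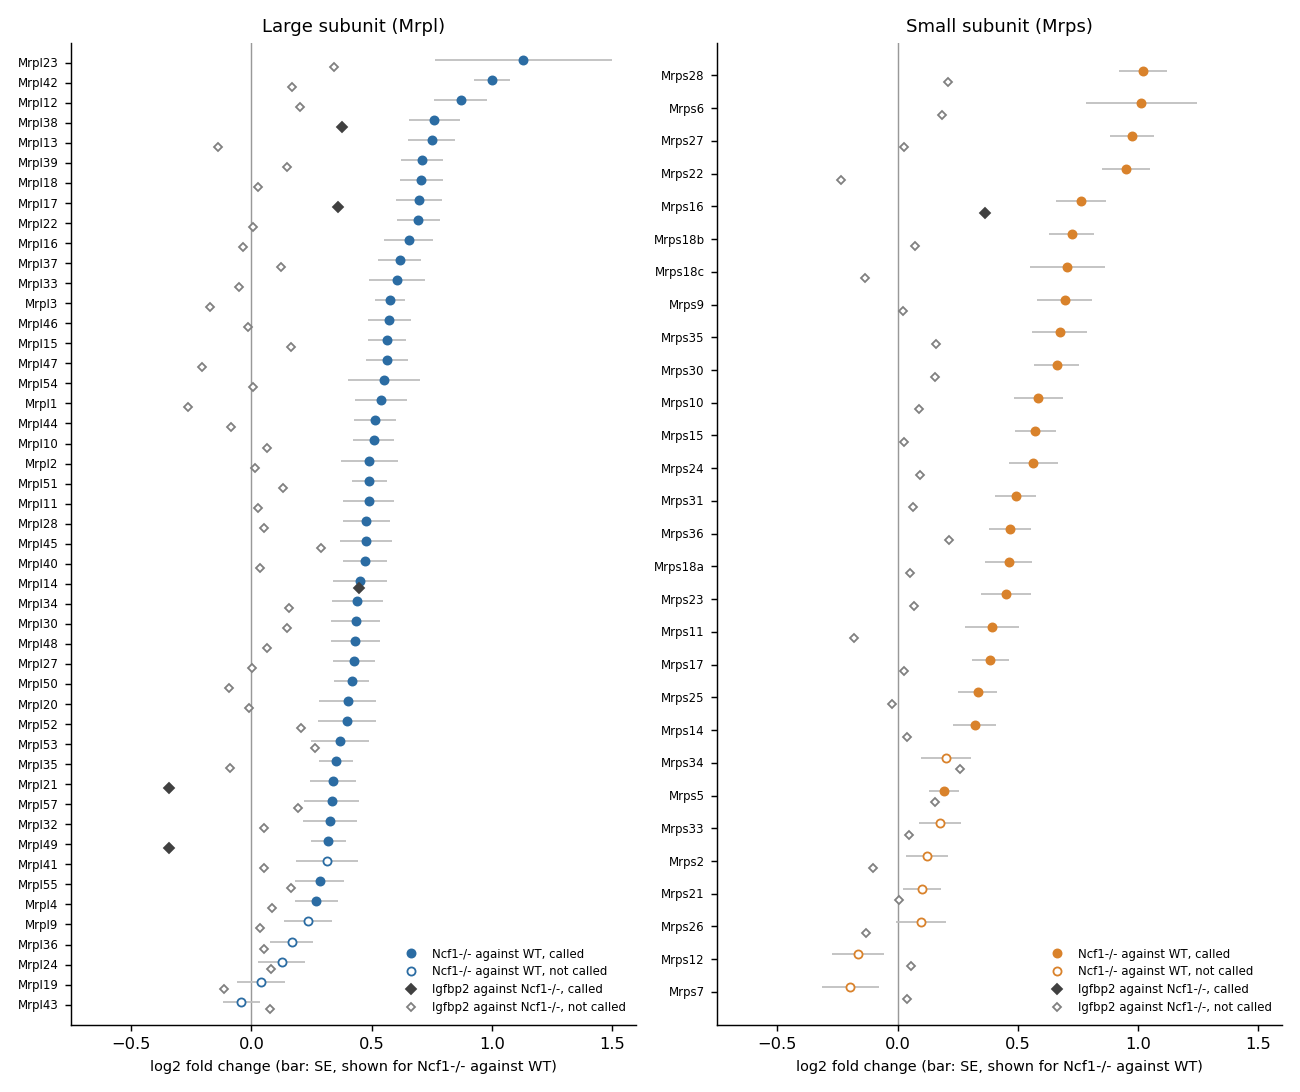
Log2 fold change of each member, large subunit at the left and small subunit at the right, ordered by the change between Ncf1-/- and WT NSCs (circles, bars show the SE) with the change between Igfbp2-treated and vehicle-treated Ncf1-/- NSCs beneath (diamonds). Filled symbols passed an adjusted p of 0.05 (edgeR); 64 of 77 circles and 6 of 77 diamonds are filled.

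Among called members whose groups did not overlap, small-subunit genes were 4 of the 5 with the largest rise. Mrps28, a small-subunit protein with a bacterial relative, had 9.14, 9.39, 11.4 and 8.85 CPM in the WT libraries and 20.8, 17.9, 19.96 and 20.2 CPM in the Ncf1-/- libraries. The groups were far apart, and Mrps28 rose by 1.02 ± 0.10 (SE) on the log2 scale (edgeR adjusted p = 2.81e-06). Mrps27, a pentatricopeptide repeat protein of the small subunit, had 16.7, 15.004, 18.6 and 16.9 CPM in WT and 33.3, 31.9, 35.1 and 32.0 CPM in Ncf1-/- NSCs. Every Ncf1-/- library was near 33 CPM and no WT library came close, with a log2 fold change of 0.97 ± 0.09 (edgeR adjusted p = 2.07e-06). In GENCODE M21 on GRCm38 Mrps27 shares 24.2% of its exonic bases with 6430562O15Rik on the opposite strand. That neighbour had a log2 fold change of 1.17, and its part was not tested. Mrps22, a mitochondria-specific protein of the small subunit, had 15.9, 13.9, 14.7 and 11.4 CPM in WT and 27.5, 25.3, 28.2 and 27.2 CPM in Ncf1-/- NSCs. All Ncf1-/- libraries were again above all WT libraries (log2 fold change 0.95 ± 0.10, edgeR adjusted p = 4.13e-06).

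Mrps6, a small-subunit protein related to bacterial S6, differed in the evenness of its WT values. It had 31.2, 31.0, 69.7 and 29.6 CPM in WT replicates 9 to 12 and 81.3, 78.3, 86.4 and 81.8 CPM in Ncf1-/- NSCs. WT replicate 11 stood apart from the other WT libraries without reaching the lowest Ncf1-/- library. The log2 fold change was 1.01 ± 0.23 (edgeR adjusted p = 0.00207), and without WT replicate 11 it was 1.42. In GENCODE M21 on GRCm38 the gene shares 19.9% of its exonic bases with Gm49711 and 10.4% with Slc5a3, both on the same strand. Slc5a3 had a log2 fold change of 0.74, and no value was available for Gm49711. Reads of the shared parts cannot be told apart.

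Among large-subunit genes Mrpl42 showed the tightest separation of the members named by size. Its level was 22.4, 19.9, 22.6 and 22.1 CPM in WT and 44.3, 43.0, 42.6 and 44.4 CPM in Ncf1-/- NSCs. The WT libraries and the Ncf1-/- libraries each fell within a narrow band (log2 fold change 1.001 ± 0.07, edgeR adjusted p = 3.15e-07). Mrpl12, which besides its place in the ribosome binds the mitochondrial RNA polymerase, had 47.9, 39.7, 43.5 and 38.5 CPM in WT and 83.7, 73.1, 82.6 and 70.8 CPM in Ncf1-/- NSCs. These groups did not overlap either (log2 fold change 0.87 ± 0.11, edgeR adjusted p = 2.14e-05). Mrpl12 shares 13.05% of its exonic bases with Gm16755 on the opposite strand. Mrpl44, a large-subunit protein with an RNase III-like fold, had 13.2 to 15.1 CPM in WT and 18.8 to 21.7 CPM in Ncf1-/- NSCs (log2 fold change 0.51, edgeR adjusted p = 0.000249). Mrpl11, which sits at the base of the stalk that binds translation factors, had 21.6 to 27.0 CPM and 30.0 to 36.0 CPM in the same order (log2 fold change 0.49, edgeR adjusted p = 0.00153).

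Mrpl23, a protein at the exit of the peptide tunnel, had the largest log2 fold change of the members and the least secure one. It had 0.41, 0.92, 1.15 and 2.34 CPM in WT and 2.61, 2.03, 3.36 and 2.39 CPM in Ncf1-/- NSCs. WT replicate 12 lay inside the range of the Ncf1-/- libraries, and the other WT libraries lay below it. The log2 fold change was 1.13 ± 0.37 (edgeR adjusted p = 0.0181), and without WT replicate 12 it was 1.59 (edgeR adjusted p = 0.000788). A processed copy, Mrpl23-ps1, held up to 492 counts in a library where Mrpl23 held at most 76, and reads may be split between them.

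Some members have paralogues, or products outside the subunit of their letter. The 3 Mrps18 genes encode paralogous proteins that occupy separate sites, of which Mrps18a is bound in the large subunit. Mrps18a had a log2 fold change of 0.46 (edgeR adjusted p = 0.00125), Mrps18b of 0.72 (edgeR adjusted p = 2.36e-05) and Mrps18c of 0.70 (edgeR adjusted p = 0.00172). In each of them the Ncf1-/- libraries did not overlap the WT libraries. Mrps18b shares 30.5% of its exonic bases with Gm16279 on the opposite strand (log2 fold change 0.15). Mrps18c shares 23.2% with Gm43511 on the same strand (log2 fold change 0.26). Mrps30, whose product is also a large-subunit protein despite its symbol, had 18.7 to 20.9 CPM in WT and 27.5 to 32.5 CPM in Ncf1-/- NSCs (log2 fold change 0.66, edgeR adjusted p = 5.95e-05). Mrps36, whose product is known as a subunit of the 2-oxoglutarate dehydrogenase complex, had 13.3 to 14.1 CPM and 16.9 to 20.9 CPM (log2 fold change 0.47, edgeR adjusted p = 0.000581).

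A group of 13 members was not called, 6 of the large and 7 of the small subunit. They were Mrpl9, Mrpl19, Mrpl24, Mrpl36, Mrpl41, Mrpl43, Mrps2, Mrps7, Mrps12, Mrps21, Mrps26, Mrps33 and Mrps34, most of them named after their values were seen. Their log2 fold changes lay between -0.20 and 0.31, and the upper end of their 95% intervals reached 0.59. Mrps12, a protein of the decoding centre, had 22.8, 21.4, 19.3 and 24.1 CPM in WT and 21.9, 16.9, 20.5 and 18.7 CPM in Ncf1-/- NSCs. Its groups overlapped widely (log2 fold change -0.16, 95% interval -0.40 to 0.07, edgeR adjusted p = 0.214). Mrps7, which binds the small-subunit rRNA, had 71.1, 55.4, 50.6 and 71.2 CPM in WT and 57.2, 53.6, 57.4 and 48.5 CPM in Ncf1-/- NSCs. WT replicates 9 and 12 were high and the other WT libraries were within the Ncf1-/- range (log2 fold change -0.20, edgeR adjusted p = 0.169).

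Some of the members not called share sequence with a neighbour. In GENCODE M21 on GRCm38, 9 members share at least 10% of their exonic bases with a protein-coding gene on the opposite strand, and 4 of these were not called: Mrpl19, Mrpl24, Mrpl43 and Mrps34. Mrpl43 shares 33.4% of its exonic bases with Peo1 (also Twnk), the mitochondrial DNA helicase, which fell (log2 fold change -0.38, edgeR adjusted p = 0.000751). Mrps34 shares 63.4% with Mapk8ip3 on the opposite strand and 37.0% with Nme3 on its own strand, with log2 fold changes of -0.99 and -0.45 for these neighbours. Mrps34 had 23.2 to 27.0 CPM in WT and 24.4 to 32.2 CPM in Ncf1-/- NSCs (log2 fold change 0.20, edgeR adjusted p = 0.119). Gcfc2, beside Mrpl19, had a log2 fold change of 0.46, and Rrnad1, beside Mrpl24, of 0.12. Mrps25 shares 69.8% with Nr2c2 (log2 fold change -0.67) and Mrpl14 shares 11.2% with Tmem63b (-0.36), and both members rose. The neighbours of Mrpl18, Mrpl46 and Mrpl47, which also rose, had log2 fold changes of 0.39 to 0.67. The part of the neighbours was not tested. Whether strand was used in counting is not given in the sources used here, so that reads of the overlapping parts cannot be told apart. Counting only the 60 members that share under 10% of their exonic bases with any annotated gene, 51 rose, with a median log2 fold change of 0.47. Of the 17 members that share at least 10% on either strand, 13 rose, with a median of 0.56. Mrps5, a protein of the small-subunit body, was the called member with the least change, at 35.8 to 38.3 CPM in WT and 41.6 to 44.8 CPM in Ncf1-/- NSCs (log2 fold change 0.19, edgeR adjusted p = 0.0170). Without WT replicate 12 its adjusted p was 0.0566 by the same test.

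The members lie on 17 chromosomes, with at most 10 on any of them, so they are spread over the genome. A start site within 1000 bases of that of a gene on the opposite strand, head to head, was found for 23 of 77 members (29.9%) and for 11.9% of the 13465 protein-coding genes tested. Of the 23 facing genes, 10 rose, 5 fell and 8 were not called, with a median log2 fold change of 0.24. Over all genes tested 28.9% were called higher and 28.2% lower, with a median of 0.02. Across the 23 pairs, the log2 fold changes of member and facing gene had a Pearson correlation of 0.21, which was not tested. Mrps27 faces Ptcd2, a mitochondrial RNA-binding protein, at 81 bases, and Ptcd2 rose with it (log2 fold change 0.89, edgeR adjusted p = 4.08e-06). Mrps12 faces Sars2, the mitochondrial seryl-tRNA synthetase, at 172 bases, and Sars2 rose (log2 fold change 0.44, edgeR adjusted p = 0.00102) where Mrps12 was not called. Mrpl44 faces Wdfy1, and their start sites overlap by 125 bases, yet Wdfy1 fell (log2 fold change -0.61, edgeR adjusted p = 7.82e-05) where Mrpl44 rose.

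Since the members moved together, promoters are shown for some members with a single start in the RefSeq table. Shown are the promoters of the 3 largest rises among called members without overlap and of the 2 lowest log2 fold changes. Each runs from 250 bases before to 50 bases after the start, 5′ to 3′ on the strand of the gene, in GRCm38.p6. Capitals mark matches on either strand to CCGGAAG (bound by ETS factors such as Gabpa), AAGATGGC (bound by Yy1), GGGCGG (bound by Sp1) and the palindromic motif of Nrf1, and matches may overlap. The windows are chr16:92058086-92058385 for Mrps6, chr10:95501900-95502199 for Mrpl42, chr13:99344536-99344835 for Mrps27, chr11:115603890-115604189 for Mrps7 and chr7:28741772-28742071 for Mrps12.
Mrps6: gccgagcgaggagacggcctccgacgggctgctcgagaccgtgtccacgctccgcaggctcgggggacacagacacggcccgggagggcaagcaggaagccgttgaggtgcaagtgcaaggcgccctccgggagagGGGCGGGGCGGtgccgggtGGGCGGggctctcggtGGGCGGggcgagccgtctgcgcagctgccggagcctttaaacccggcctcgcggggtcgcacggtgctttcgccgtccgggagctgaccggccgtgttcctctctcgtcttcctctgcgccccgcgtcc
Mrpl42: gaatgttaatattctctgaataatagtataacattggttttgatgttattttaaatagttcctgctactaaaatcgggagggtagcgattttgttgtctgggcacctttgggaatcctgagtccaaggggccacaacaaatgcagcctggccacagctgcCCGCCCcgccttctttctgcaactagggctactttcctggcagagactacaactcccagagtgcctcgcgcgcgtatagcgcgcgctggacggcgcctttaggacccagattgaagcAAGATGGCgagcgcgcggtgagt
Mrps27: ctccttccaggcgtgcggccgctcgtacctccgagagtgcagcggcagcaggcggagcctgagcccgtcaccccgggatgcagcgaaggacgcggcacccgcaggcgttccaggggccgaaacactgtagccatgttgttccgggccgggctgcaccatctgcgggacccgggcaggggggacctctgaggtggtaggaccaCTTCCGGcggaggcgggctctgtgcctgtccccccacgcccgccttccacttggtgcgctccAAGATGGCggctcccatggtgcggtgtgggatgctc
Mrps7: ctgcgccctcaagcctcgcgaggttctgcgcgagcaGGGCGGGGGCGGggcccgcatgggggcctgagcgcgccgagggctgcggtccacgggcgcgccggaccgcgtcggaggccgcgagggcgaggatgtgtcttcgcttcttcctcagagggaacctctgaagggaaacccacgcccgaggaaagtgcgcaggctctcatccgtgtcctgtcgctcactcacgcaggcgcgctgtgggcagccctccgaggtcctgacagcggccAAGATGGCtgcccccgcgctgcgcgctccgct
Mrps12: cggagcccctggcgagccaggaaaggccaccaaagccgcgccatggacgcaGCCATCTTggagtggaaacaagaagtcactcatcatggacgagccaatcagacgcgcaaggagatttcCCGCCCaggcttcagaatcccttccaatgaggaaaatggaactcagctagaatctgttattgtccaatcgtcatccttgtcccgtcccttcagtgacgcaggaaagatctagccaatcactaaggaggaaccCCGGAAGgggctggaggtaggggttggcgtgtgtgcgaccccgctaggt

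In Mrpl42, Mrps27 and Mrps7 the AAGATGGC match lies downstream of the start, and in Mrps12 it lies upstream on the other strand. Mrps6 holds only GGGCGG, and none of these 5 windows holds the Nrf1 motif. Over the 68 members found in the promoter table, 36.8% held CCGGAAG, 17.6% AAGATGGC, 19.1% the Nrf1 motif, and 34 members held GGGCGG. In the 10676 tested genes found there, the same letters were held by 18.8%, 5.01%, 11.04% and 69.0%. Among the 57 members that rose, 35.1% held CCGGAAG and 15.8% AAGATGGC, and of the 11 not called 45.5% and 27.3% did. The letters describe these windows only and were not tested against the change.

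**Figure D3:**
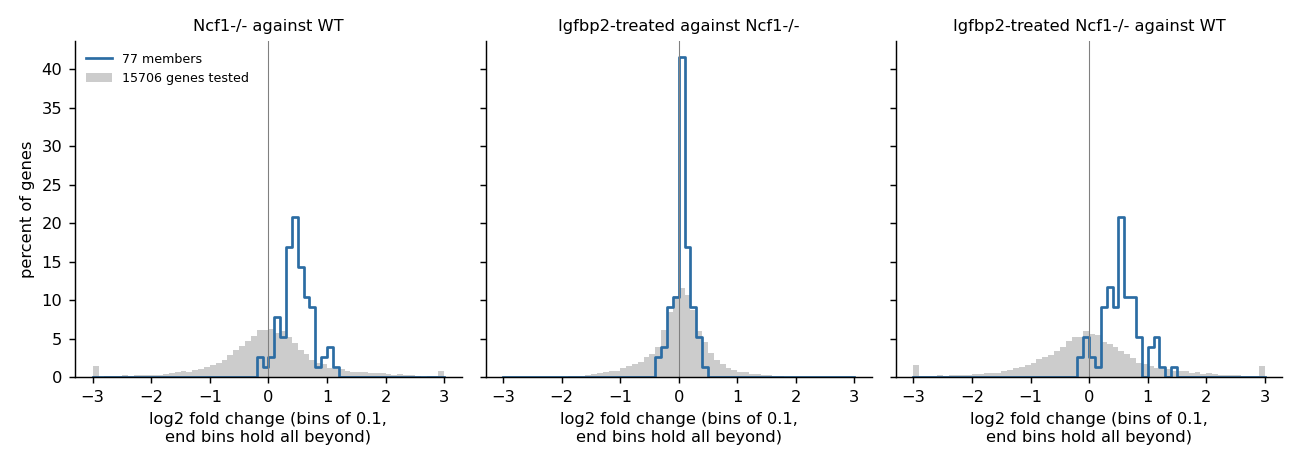
Distribution of log2 fold changes in bins of 0.1 for the 77 members (blue line) and all 15706 genes tested (grey bars), as percent of genes, in the 3 comparisons. The members sit to the right of the gene background in both comparisons with WT, at medians of 0.48 and 0.53, and near the median of all genes between Igfbp2-treated and vehicle-treated Ncf1-/- NSCs.

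Both subunits shared the difference between genotypes. Of the large-subunit genes 42 of 48 rose, with a median log2 fold change of 0.48, and of the small-subunit genes 22 of 29 rose, with a median of 0.47. Assigned by the structure of the mammalian particle, 44 of 50 large-subunit and 19 of 26 small-subunit genes rose. Small-subunit genes varied more among themselves, with an SD of log2 fold changes over genes of 0.33, against 0.22 for the large subunit. The summed large-subunit level was 1.74, 1.70, 1.69 and 1.72 times the summed small-subunit level in WT replicates 9 to 12. In Ncf1-/- replicates 1 to 4 this ratio was 1.81, 1.79, 1.79 and 1.78, so that the groups did not overlap, at means of 1.71 ± 0.023 and 1.79 ± 0.011 (SD, n = 4 each). The log2 difference of the ratio was 0.065, and without WT replicate 12 it was 0.067. Members classed as having bacterial relatives rose in 38 of 46 and members classed as mitochondrial only in 25 of 30, with median log2 fold changes of 0.48 and 0.48. Mrps18a and Mrps18b were classed as mitochondrial only, although their paralogue Mrps18c was classed with the bacterial relatives.

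Levels of different members were compared as CPM per kb of effective length. Mrps21, a small-subunit protein with a bacterial relative, was the highest with 129 CPM per kb in WT and 144 CPM per kb in Ncf1-/- NSCs, and it was not called (log2 fold change 0.10, edgeR adjusted p = 0.285). Mrpl17 and Mrpl52, both of the large subunit, followed with 74.9 and 99.1 CPM per kb in WT and 138 and 135 CPM per kb in Ncf1-/- NSCs. The lowest were Mrpl23, Mrpl35 and Mrpl1, with 2.31, 4.46 and 4.68 CPM per kb in WT. Mrpl1, which forms the mobile stalk beside the tRNA exit site, rose to 6.64 CPM per kb in Ncf1-/- NSCs (log2 fold change 0.54, edgeR adjusted p = 0.000834), and Mrpl35 rose to 5.71 CPM per kb (log2 fold change 0.35, edgeR adjusted p = 0.000812). The median over members was 26.9 CPM per kb in WT, 36.6 in vehicle-treated and 37.3 in Igfbp2-treated Ncf1-/- NSCs. In WT NSCs 55 of 77 members lay within 2-fold of the median. The order of the members was largely kept between WT and Ncf1-/- NSCs (Spearman's rho 0.948 over 77 genes, which share libraries and gene lengths and are not independent).

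**Figure D4:**
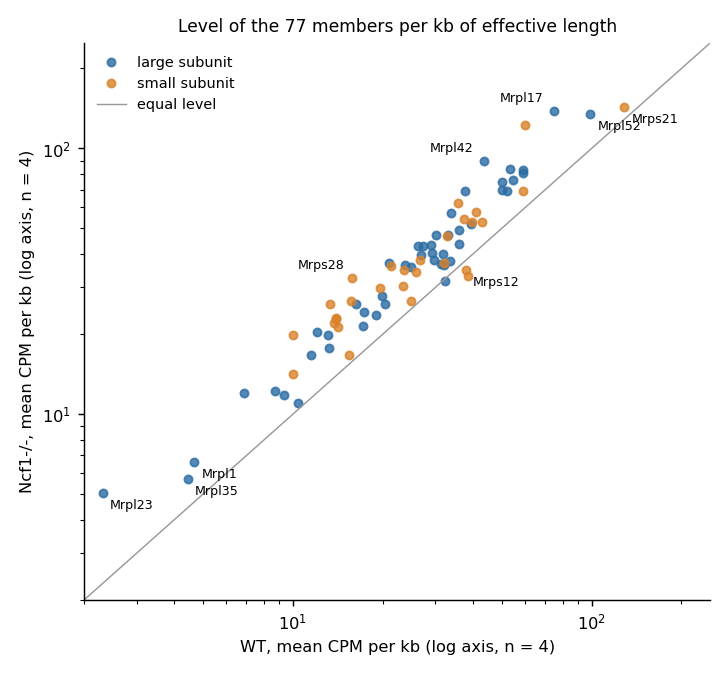
Mean level of each member in WT (horizontal) and Ncf1-/- NSCs (vertical), in CPM per kb of effective length on log axes, n = 4 libraries each, with the line of equal level. Most points lie above the line, and the levels span from 2.31 for Mrpl23 to 129 CPM per kb for Mrps21 in WT.

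Most mitochondrial ribosomal protein genes had similar levels in Igfbp2-treated and vehicle-treated Ncf1-/- NSCs. Every vehicle library held 105.3 to 116 CPM of Y-linked genes and every Igfbp2 library 7.79 to 9.18 CPM, so that the treatment and the sex or animal of origin of the cultures cannot be told apart in any value of this comparison. Of the 77 members, 4 rose and 2 fell against vehicle-treated Ncf1-/- NSCs (edgeR), where 14.2% of all genes tested were called higher and 10.7% lower. For 68 members the 95% interval of the log2 fold change lay within 0.5 of 0, as it did for 40.1% of all genes. Treated and vehicle libraries did not overlap in 16 members, 10 higher and 6 lower, while 34.1% of all genes were separated in either direction. The median log2 fold change was 0.05 over the members and 0.04 over all genes tested. With the stated pairs of cultures as a block, 5 members were called higher and 7 lower. These values changed with the processing. Scaled by library totals alone, the medians were -0.22 for the members and -0.23 for all genes, with 0 members higher and 27 lower. By limma on log2(TPM + 1), where the unit, the scaling and the test all differ, 0 were higher and 50 lower. On that TPM scale the median of all genes tested was -0.30 and that of the members -0.41. Short structural RNAs differed between the same libraries, at 135676 to 223243 CPM summed in Igfbp2-treated and 78508 to 120680 CPM in vehicle-treated libraries, and their part was not tested.

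Of the members that fell, Mrpl49 had 33.5, 32.5, 34.4 and 32.5 CPM in vehicle-treated and 27.6, 24.6, 27.9 and 24.6 CPM in Igfbp2-treated Ncf1-/- NSCs. All treated libraries were below all vehicle libraries and within or near the WT range of 24.8 to 28.3 CPM. Its log2 fold change was -0.34 ± 0.07 (edgeR adjusted p = 0.00579), and it fell in all 24 other fits. Mrpl21 had 24.2, 23.4, 24.6 and 22.2 CPM in vehicle-treated and 20.5, 17.9, 18.6 and 17.3 CPM in Igfbp2-treated NSCs, again without overlap (log2 fold change -0.34 ± 0.10, edgeR adjusted p = 0.0215). Its call was lost in 3 of the 24 other fits, with an adjusted p of 0.0593 without vehicle replicate 1, of 0.0531 without vehicle replicate 2, and at the stricter threshold of 0.01. Against WT, the Igfbp2-treated libraries differed by a log2 fold change of -0.02 for Mrpl49 and -0.01 for Mrpl21, with edgeR adjusted p of 0.802 and 0.965. The vehicle libraries enter both the comparison with WT and that with Igfbp2, so these changes are not independent of the rise described above.

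The 4 members that rose in Igfbp2-treated NSCs had also risen in Ncf1-/- against WT. Mrpl14, which lies at the interface between the subunits, had 19.5, 19.0, 20.8 and 16.04 CPM in vehicle-treated and 31.2, 24.8, 22.7 and 24.2 CPM in Igfbp2-treated NSCs. Replicate 5 was the highest treated library and no treated library fell inside the vehicle range (log2 fold change 0.45 ± 0.11, edgeR adjusted p = 0.0125). Mrpl38, found only in mitochondrial ribosomes, had 43.1, 43.4, 44.1 and 39.3 CPM with vehicle and 65.4, 49.8, 55.7 and 49.7 CPM with Igfbp2 (log2 fold change 0.38 ± 0.10, edgeR adjusted p = 0.0206). Mrpl17 had 78.1, 72.7, 75.01 and 66.3 CPM with vehicle and 110.3, 91.1, 86.1 and 87.3 CPM with Igfbp2 (log2 fold change 0.36 ± 0.10, edgeR adjusted p = 0.0179). Mrps16 had 25.4, 24.2, 25.7 and 21.1 CPM with vehicle and 35.3, 29.03, 27.9 and 31.5 CPM with Igfbp2 (log2 fold change 0.36 ± 0.10, edgeR adjusted p = 0.0218). In these genes the treated libraries were all above the vehicle libraries, and Igfbp2-treated replicate 5 was the highest each time. Without that replicate 1 member was called higher, and on the TPM scale each of the 4 log2 fold changes was below 0.

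Summed over the members, Igfbp2-treated replicates 5 to 8 had 3113, 2656, 2615 and 2620 CPM (mean 2751 ± 242, SD, n = 4). Only replicate 5 lay above the vehicle-treated range of 2470 to 2722 CPM. As a share of all counts without TMM scaling, the members took 0.2784, 0.2428, 0.2551 and 0.2336% in replicates 5 to 8. The vehicle-treated range was 0.2775 to 0.2989%, so that by this measure replicates 6 to 8 lay below every vehicle library. The ratio of the summed large to the summed small level was 1.81, 1.83, 1.77 and 1.83 in the Igfbp2-treated libraries. Its range took in that of the vehicle-treated libraries.

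Compared with WT, Igfbp2-treated Ncf1-/- NSCs had 66 members higher and 0 lower (edgeR), where 31.6% of all genes tested were called higher and 30.8% lower. In 60 members all treated libraries lay above all WT libraries, while 27.8% of all genes were separated upwards and 54.3% in either direction. The Y-linked levels separate these groups as well, except for WT replicate 12. Without WT replicate 12, 57 members rose and 0 fell, and the median log2 fold change was 0.44 in place of 0.53. By subunit, 43 of 48 large and 23 of 29 small members rose, with median log2 fold changes of 0.53 and 0.56. Mrps28 rose by a log2 fold change of 1.23, Mrps6 by 1.20, Mrpl42 by 1.17, Mrpl38 by 1.14 and Mrpl12 by 1.07, and Mrpl23 by 1.47 at its low level, with edgeR adjusted p between 9.71e-08 and 0.00354. In counts of members, 61 were higher than WT in both Ncf1-/- groups, 3 with vehicle only and 5 with Igfbp2 only. These comparisons share the WT libraries, and the difference between them was the treatment comparison above. On the deposited TPM 7 members were called higher and 2 lower by the test of the study, and 13 higher and 7 lower by limma on log2(TPM + 1). The median log2 fold change of all genes was then -0.45 and -0.25. Over the 3 groups together, 66 of 77 members differed (edgeR F test, adjusted p under 0.05), as did 71.6% of all genes tested.

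Other genes of mitochondrial translation were examined by list. The 5 ribosomal proteins with other symbols (Dap3, Chchd1, Ptcd3, Aurkaip1 and Gadd45gip1) all rose in Ncf1-/- NSCs, led by Chchd1 with 17.7 to 24.6 CPM in WT and 37.4 to 41.1 CPM in Ncf1-/- NSCs (log2 fold change 0.96). Translation factors rose in 9 of 13 gene entries and fell in 0, with Guf1, a ribosome-bound GTPase, at a log2 fold change of 0.87 and Gfm2, which recycles ribosomes, at 0.75. Assembly and rRNA maturation genes rose in 13 of 24 and fell in 1, with Fastkd2, an RNA-binding assembly factor, at 1.002, and without WT replicate 12 the counts were 8 and 2. Mitochondrial aminoacyl-tRNA synthetases and the related amidotransferase rose in 13 of 22 and fell in 0, with Iars2 at 0.72 and Gatb at 0.69. The largest log2 fold change in this list was 2.36, in an entry not named here. Without WT replicate 12 the counts were 14 and 1. Genes that replicate, transcribe or process mitochondrial nucleic acids rose in 9 of 18 and fell in 2, with Pnpt1, a polynucleotide phosphorylase, at 1.02. Leaving out WT replicate 12 gave counts of 8 and 2. The comparable background was 28.9% called higher.

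**Figure D5:**
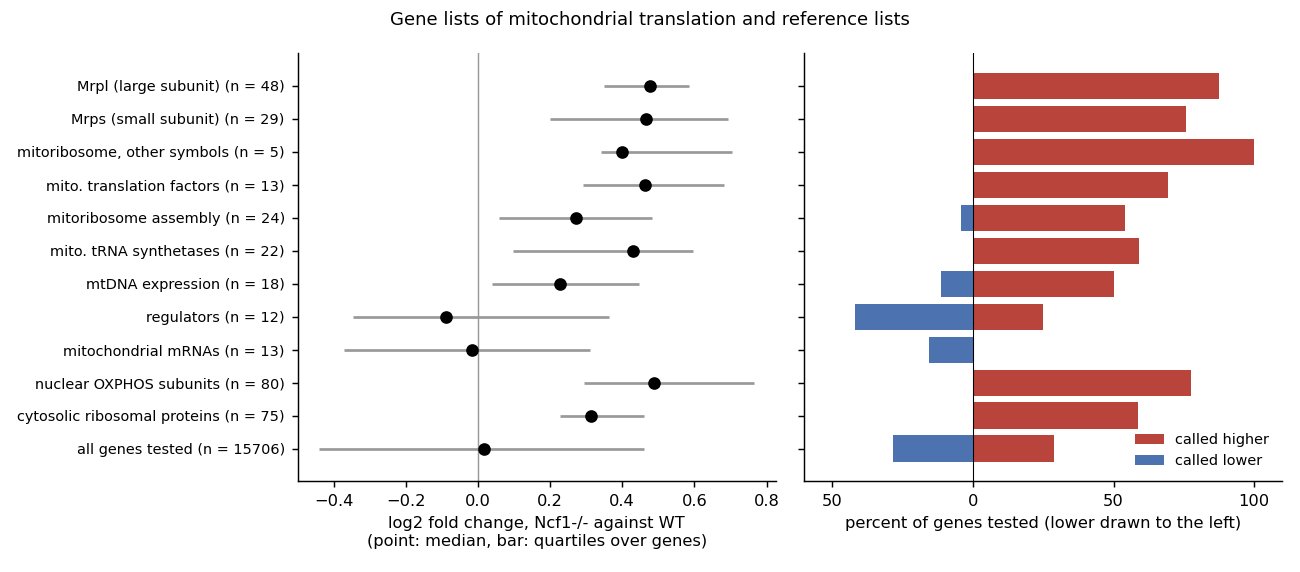
Gene lists between Ncf1-/- and WT NSCs: left, median log2 fold change (point) with quartiles over genes (bar), right, percent of genes tested that were called higher (red) or lower (blue, drawn to the left). Nuclear lists of mitochondrial translation lie to the right of 0, and regulators and mitochondrial mRNAs lie close to it, at medians of -0.09 and -0.02.

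Regulators of nuclear genes for mitochondria were mixed, with 3 of 12 higher and 5 lower in Ncf1-/- NSCs, and 3 and 6 without WT replicate 12. For these and for the mitochondrial mRNAs below, the background was 28.9% of all genes tested called higher and 28.2% lower. Ppargc1a, a coactivator of mitochondrial biogenesis, had 17.6 to 23.4 CPM in WT and 32.5 to 41.6 CPM in Ncf1-/- NSCs (log2 fold change 0.78, edgeR adjusted p = 2.14e-05). Esrra, a nuclear receptor that acts with it, rose by a log2 fold change of 0.67 (edgeR adjusted p = 0.000166), while Max, the partner of Myc, fell by 0.59 (edgeR adjusted p = 4.58e-05). Of the 13 mitochondrial mRNAs that this ribosome translates, 0 rose and 2 fell, mt-Cytb at a log2 fold change of -0.54 and mt-Nd4 at -0.47, and without WT replicate 12 the number lower was 4. The libraries were depleted of rRNA, and the summed level of the mitochondrial rRNAs ranged from 6.46 to 409 CPM between libraries.

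Between Igfbp2-treated and vehicle-treated Ncf1-/- NSCs, where 14.2% of all genes were called higher and 10.7% lower, few list genes were called. Ribosomal proteins with other symbols were higher in 1 and lower in 1 of 5, translation factors in 0 and 2 of 13, assembly genes in 1 and 4 of 24, and synthetases in 0 and 2 of 22. Genes of mitochondrial nucleic acids were higher in 1 and lower in 1 of 18, regulators in 2 and 3 of 12, and mitochondrial mRNAs in 1 and 0 of 13. Mettl17, an assembly factor of the small subunit, fell by 0.79 on the log2 scale (edgeR adjusted p = 0.00223), and Mterf3, which acts in large-subunit assembly, fell by 0.68 (edgeR adjusted p = 0.000676). Both were then lower than in WT NSCs, at log2 fold changes of -0.41 (edgeR adjusted p = 0.0180) and -0.42 (edgeR adjusted p = 0.000892). Trub2, a pseudouridine synthase, fell by 0.55 (edgeR adjusted p = 0.00358), Guf1 by 0.50 (edgeR adjusted p = 0.00361) and Cars2, the cysteinyl-tRNA synthetase, by 0.50 (edgeR adjusted p = 0.0101). Among genes called higher were mt-Co1 at a log2 fold change of 0.56 (edgeR adjusted p = 0.0226), Chchd1 at 0.31 (edgeR adjusted p = 0.0368) and Peo1 at 0.27 (edgeR adjusted p = 0.0215). For reference, nuclear genes of oxidative phosphorylation subunits rose in 62 of 80 between Ncf1-/- and WT NSCs (median log2 fold change 0.49) and cytosolic ribosomal proteins in 44 of 75 (median 0.31), with 0 lower in either list. Leaving out WT replicate 12, the numbers higher were 61 of 80 and 47 of 75.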

How the data were processed

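Ribosome-depleted RNA from 12 NSC cultures was sequenced, and per the submitters' processing notes reads were mapped to GRCm38 with Bowtie2 and quantified with RSEM; versions and annotation release are not given in the sources used here. The authors deposited per library the expected count (estimated count) per gene without normalization, TPM and FPKM, which was not used. The merged table deposited by the authors holds a score, TPM summed over the transcripts of a gene, and served for gene symbols only. Rounded expected counts (15.9% were not whole) were tested in edgeR 4.0.16 (R 4.3.3) by a quasi-likelihood fit of 3 group means over the 12 libraries, with TMM factors, filterByExpr and 2-sided tests, adjusted by Benjamini-Hochberg over 15706 genes and called under 0.05. Replicates are cultures of separate pups per the study, and no pair of replicates agreed within counting noise.

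The members and the lists were chosen with earlier results of these data known. Members named were, per comparison, the 5 largest rises and falls among called members without overlap, the 3 highest and 3 lowest per kb, and 12 listed for their known roles; list genes were taken from the at most 3 called genes of each list with the largest change in a comparison, and Chchd1 and Peo1 were named again for the treatment. Positions came from GENCODE M21 (GRCm38; 45229 of 45792 gene identifiers found) and promoters from RefSeq (68 of 77 members). The study states pairs of vehicle and Igfbp2 cultures by animal, but deviations of paired cultures correlated between -0.0673 and 0.0328 over 4 pairs. Alternatives used DESeq2 1.42.0, limma 3.58.1 on TPM, the study's ANOVA with Tukey's comparisons on TPM (named as the test of the study), other scalings, filters and thresholds, the pairs as a block, and each library left out. The counts over members split by exonic sharing, and the lists without WT replicate 12, were chosen after seeing the data.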

Additional observations from a re-analysis of the deposited data

Results flagged for a closer look

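Among the members named and the summed values, 3 of 87 group checks found a library far from the other 3 of its group, where chance gives about 1 in 20. Mrps6 was at 69.73 CPM in WT replicate 11, against 29.62 to 31.25 CPM in the other WT libraries. Mrps16 was at 12.09 CPM in WT replicate 10, against 14.70 to 14.96 CPM in the others. The summed level of the members was 3113 CPM in Igfbp2-treated replicate 5, against 2615 to 2656 CPM in the others. The cause was not tested.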

How the results depend on the processing

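Between Ncf1-/- and WT NSCs the number of members higher lay between 44 (the test of the study on TPM) and 73 (library totals), and 43 members were higher in all 23 other fits over genes. Leaving out each library gave 57 to 65 higher and 0 to 1 lower, the 1 being Mrps7 without WT replicate 11. The median log2 fold change was 0.66 with library totals and 0.59 with library sizes that omit the 100 most abundant genes, where all genes had 0.19 and 0.13, and Mrps12 changed sign to 0.015 with library totals. The log2 difference of the large-to-small ratio was 0.065 by symbol and 0.078 with subunits by structure. Igfbp2-treated against vehicle-treated Ncf1-/- NSCs varied most between settings. Counts higher and lower were 0 and 27 with library totals (median -0.22), 0 and 12 without the abundant genes (-0.11), 0 and 20 by the test of the study on TPM (-0.42), 0 and 50 by limma on log2(TPM + 1) (-0.41), 0 and 42 on log2(TPM + 0.1) (-0.43), and 0 and 1 at an adjusted p under 0.01. Members lower were 6 when genes under a mean of 5 CPM were left out and 6 with only the groups compared. On TPM the log2 fold changes, in the order of the test of the study, a pseudocount of 1 and one of 0.1, turned to -0.054, -0.062 and -0.064 for Mrpl14, to -0.17, -0.18 and -0.19 for Mrpl38, to -0.15, -0.16 and -0.16 for Mrps16 and to -0.088, -0.10 and -0.10 for Mrpl17. With the stated pairs as a replicate block, 5 members were higher and 7 lower. Leaving out each library gave 1 to 5 higher and 1 to 5 lower. The count higher was 1 without Igfbp2 replicate 5 and 2 without vehicle replicate 2, and the count lower was 1 without vehicle replicate 1 or 2 and 5 without WT replicate 12. For Igfbp2-treated against WT NSCs, TPM gave 7 higher and 2 lower (median 0.13), 13 and 7 (0.11), and 12 and 6 (0.12) in the same order, and leaving out each library gave medians of 0.41 to 0.57, the lowest without Igfbp2 replicate 5. The cause of these differences was not tested. Counts under 10 in a library, as for Mrpl23, limit the precision of its values.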
